A study of Danio rerio with 21 samples.

Results

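The 2 highest dose rates of chronic gamma irradiation, 5 mGy/h and 0.5 mGy/h, were compared directly with each other in the telencephalon of adult zebrafish. The comparison used the 3 libraries at 5 mGy/h and the 3 at 0.5 mGy/h, 6 of the 21 libraries of the series, chosen by their labels. It was made across all genes with and without replicate 1 of the 5 mGy/h group, which was already known to stand apart in its values. The fish were wild-type animals of the AB strain, 6 to 9 months old, exposed continuously to a caesium source for 36 days, and 3 to 4 dissected telencephalons had been pooled for each library, from a group balanced between males and females. All 6 libraries belonged to batch 1, as did 3 libraries of unexposed AB fish, which are given as a background level only. The pools had been taken from whole tissue, so fewer cells of a type and less RNA per cell cannot be told apart, and p-values measure the spread between pools.

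The telencephalon is the forebrain region of the fish that holds the pallium and subpallium, and its neurons signal with glutamate and GABA. Immediate-early genes such as fos, egr1 and npas4 encode transcription factors that neurons switch on within minutes of activity or stress, and they are widely used as markers of recent stimulation. Ionizing radiation is known to break DNA, and it can act on dividing progenitors as well as on mature neurons.

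Reads counted on genes ranged from 51.9 to 58.3 M reads per 0.5 mGy/h library and from 45.4 to 71.6 M per 5 mGy/h library, so that 3 counts corresponded to at most 0.066 CPM (counts-per-million after TMM scaling). The 0.5 mGy/h libraries correlated with each other at 0.963 to 0.98 (Pearson, log2 CPM, across 21307 genes, which are not independent replicates). Replicates 2 and 3 at 5 mGy/h correlated at 0.984, whereas replicate 1 correlated with them at 0.919 and 0.903, lower than with any 0.5 mGy/h library (0.933 to 0.953). Among 17125 genes with a mean of at least 1 CPM at 0.5 mGy/h, replicate 1 held 2483 genes at least 2-fold below that mean and 112 at least 2-fold above it. Replicates 2 and 3 leaned the other way, with 643 and 955 genes at least 2-fold above and 213 and 283 below. Forebrain identity genes were present in every library, and the mean log2(CPM + 0.5) of that list was 4.89 to 4.95 at 0.5 mGy/h, with 4.87 to 5.17 at 5 mGy/h.

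The first question was which genes differed between the dose rates when all 6 libraries were used. With edgeR's quasi-likelihood test, no gene passed both thresholds, a false discovery rate (FDR) below 0.05 and a fold difference of 1.5 or more (0 of 20927 genes, 0%), and the smallest FDR was 0.204. At an unadjusted p under 0.05 there were 783 genes (3.74%), of which 438 (2.09%) were higher and 345 (1.65%) lower at 5 mGy/h, while DESeq2 called 55 genes, 24 higher and 31 lower. The 3 libraries at 5 mGy/h all lay above those at 0.5 mGy/h for 867 genes (4.14%) and all below for 1089 (5.2%). Without replicate 1 the same test called 637 of 21350 genes (2.98%), 592 higher (2.77%) and 45 lower (0.211%) at 5 mGy/h. Because a library known to deviate was left out, the spread within its group is narrowed. The p and FDR values of the 5-library fit can therefore be too small. In these 5 libraries 2917 genes (13.7%) were higher and 1421 (6.66%) lower at an unadjusted p under 0.05, the groups did not overlap for 22.7% of genes in the higher and 18.9% in the lower direction, and 50.6% of genes had a fold change above 1. Of the 55 genes called by DESeq2 in 6 libraries, 36 were among these 637.

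**Figure D1:**
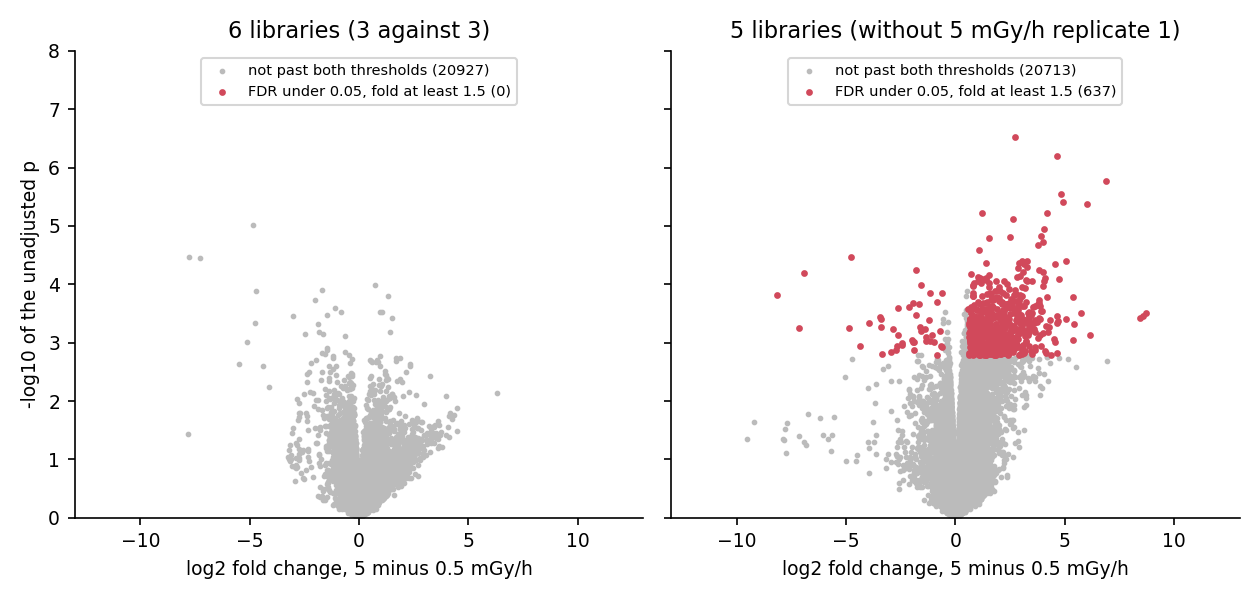
Each point is a gene, plotted by its log2 fold change (5 minus 0.5 mGy/h) against the -log10 of its unadjusted p in edgeR's test, with genes past both thresholds in red. No gene is red with 6 libraries, and 637 are red without 5 mGy/h replicate 1, 592 of them on the higher side.

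With 6 libraries, the genes higher at 5 mGy/h were ranked by p if they had a symbol and no overlap between groups. A fold of at least 1.5 and a mean of at least 1 CPM were also required. Immediate-early genes were 6 of the first 10. EGR1, the inducible zinc finger factor (egr1, ENSDARG00000037421), stood at 211, 189 and 202 CPM at 0.5 mGy/h and at 353, 313 and 337 CPM at 5 mGy/h. The groups did not overlap, and the log2 fold change was 0.75 ± 0.08 (SE, n = 3 per group, FDR = 0.451 with edgeR). A second member of the family, EGR2 (ENSDARG00000042826), was at 5.56, 6.57 and 5.83 CPM at 0.5 mGy/h and at 12.8, 16.4 and 15 CPM at 5 mGy/h, again without overlap, with a log2 fold change of 1.31 ± 0.16 (FDR = 0.483). The nuclear receptor NR4A1 (ENSDARG00000000796), an inducible factor of neurons and endocrine cells, was at 25.5, 29.7 and 26.8 CPM at 0.5 mGy/h and at 45.9, 51.9 and 59 CPM at 5 mGy/h (log2 fold change 0.94 ± 0.13, FDR = 0.52).

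FOS (ENSDARG00000031683), a subunit of the AP-1 factor, was measured at 16.4, 17.2 and 26.8 CPM at 0.5 mGy/h and at 46.7, 59.4 and 55 CPM at 5 mGy/h (log2 fold change 1.42 ± 0.22, FDR = 0.719). NPAS4 (ENSDARG00000055752, one of 2 IDs with that name), a factor induced by neuronal activity, was at 136, 129 and 174 CPM against 227, 338 and 291 CPM (0.97 ± 0.18, FDR = 1). ier2b (ENSDARG00000086881), an early response gene, was at 6.72, 8.35 and 8.64 CPM against 12.5, 14.8 and 15.4 CPM (0.86 ± 0.17, FDR = 1). For each of these 3 genes every 5 mGy/h library was above every 0.5 mGy/h library, replicate 1 included. The antiproliferative gene BTG2 (ENSDARG00000020298), an early response gene, was at 25.2, 23.6 and 46 CPM against 68.7, 97.9 and 71.7 CPM (1.34 ± 0.30, FDR = 1).

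Of the 31 immediate-early genes tested, 15 had an unadjusted p under 0.05, all 15 with the higher level and no overlap at 5 mGy/h, against 2.09% and 4.14% of all genes, and the median log2 fold change was 0.40, against 0.03 over all genes. A fold change below 1 was found for 7 of the 31. None passed the thresholds in the 6-library fit, and 7 were called higher by DESeq2, which called 24 of 20927 genes higher. With the 3 groups of batch 1 in one edgeR fit, 17 of the 31 had an unadjusted p under 0.05 (1116 of 21307 genes did). With all groups of both batches in one fit, 6 of the 31 had one (805 of 21293 genes did). Leaving out 1 of the 6 libraries gave medians from 0.27 to 0.47. Without 5 mGy/h replicate 1 the median was 0.47, and none passed in the lower direction (0.211% of all genes did). In that fit 3 were lower at an unadjusted p under 0.05 (6.66% of all genes), and 3 lay below without overlap (18.9% of all genes). The 7 of 31 that passed and rose, against 2.77% of all genes, were egr1, EGR2, NR4A1, FOS, NPAS4, ier2b and EGR3. Of these, EGR3 (ENSDARG00000089156) behaved differently in the library left out, with 56.5, 59.5 and 50.7 CPM at 0.5 mGy/h, 86.1 and 94 CPM in replicates 2 and 3, and 45.3 CPM in replicate 1, so that its groups overlapped in 6 libraries. With 5 libraries, none of the 31 passed without 0.5 mGy/h replicate 2 or 3, nor without 5 mGy/h replicate 3, while 5 passed without 0.5 mGy/h replicate 1 and 2 without 5 mGy/h replicate 2.

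The unexposed fish of the same batch give the level against which both dose rates can be read. FOS was at 16.6, 13.4 and 46.4 CPM in the controls, NPAS4 at 150, 99.7 and 280 CPM, BTG2 at 23.8, 22.3 and 70 CPM, and EGR2 at 5.33, 2.9 and 12 CPM. Control replicate 3 was thus inside the range of the 5 mGy/h libraries for NPAS4 and BTG2 and just below it for FOS and EGR2. For egr1 the controls were at 239, 235 and 311 CPM, above every 0.5 mGy/h library, and for NR4A1 they were at 24.4, 17.8 and 18.7 CPM, below every 0.5 mGy/h library. The list mean, as log2(CPM + 0.5), was 4.48, 4.24 and 4.77 in the controls, 4.47, 4.51 and 4.59 in the 0.5 mGy/h libraries and 4.85, 4.97 and 4.95 in the 5 mGy/h libraries, where the 3 libraries lay above all others of the batch.

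**Figure D2:**
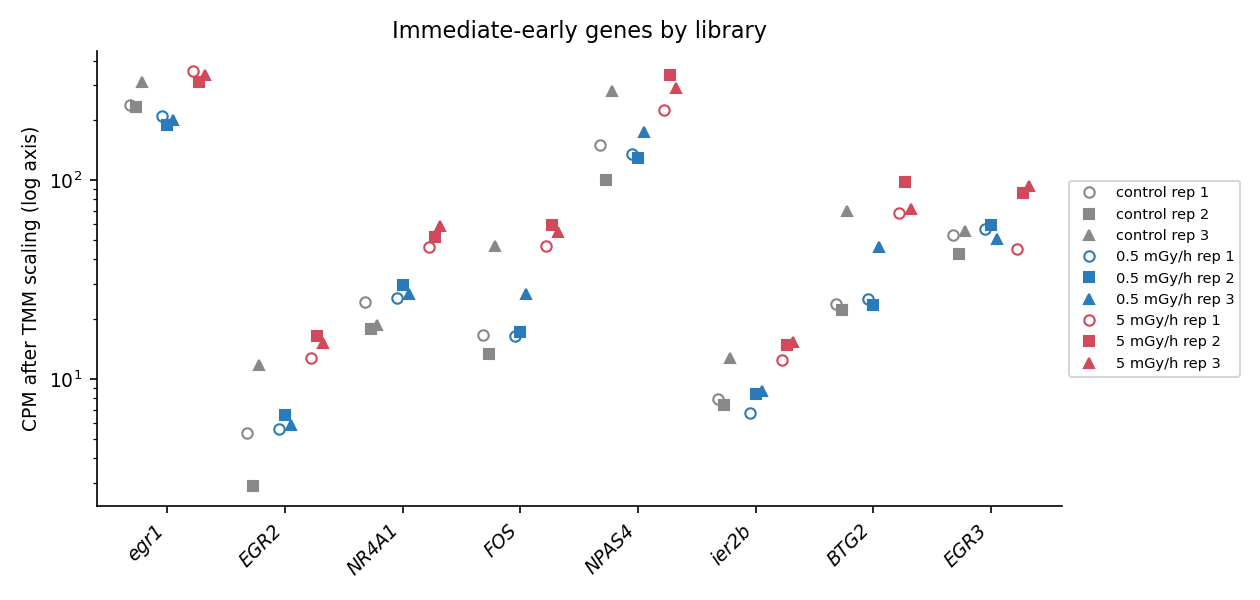
CPM after TMM scaling (log axis) of 8 immediate-early genes in each library of controls (grey), 0.5 mGy/h (blue) and 5 mGy/h (red), with replicate 1 as open circles. The 5 mGy/h libraries lie above the 0.5 mGy/h libraries for every gene shown except EGR3, whose replicate 1 is at 45.3 CPM.

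Other genes were higher in all 3 libraries at 5 mGy/h. mfap5 (ENSDARG00000090560), named for a microfibril protein of the extracellular matrix, was at 1.96, 2.5 and 2.31 CPM at 0.5 mGy/h and at 5.33, 7.62 and 6.19 CPM at 5 mGy/h, without overlap (log2 fold change 1.51 ± 0.22, FDR = 0.535). CRABP1 (ENSDARG00000045926, one of 2 IDs with that name), a carrier of retinoic acid, was at 9.43, 12.9 and 10.8 CPM against 18.7, 18.8 and 20.3 CPM, although control replicate 1 was also at 19.5 CPM (0.81 ± 0.16, FDR = 1). The linker histone H1-10 (ENSDARG00000054058) was at 42.1, 38.9 and 44.1 CPM against 83.4, 74 and 57.7 CPM, and the controls were at 51 to 66.9 CPM (0.79 ± 0.16, FDR = 1). zgc:122979 (ENSDARG00000004187) was at 141, 106 and 100 CPM against 220, 242 and 241 CPM (1.03 ± 0.14, FDR = 0.52).

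On the lower side, the largest difference was at tmsb1 (ENSDARG00000104181), a beta thymosin, a family of small proteins that bind actin monomers. It was at 4.01, 14.9 and 11 CPM at 0.5 mGy/h and at 0.066, 0.0412 and 0.0219 CPM at 5 mGy/h, and the controls were at 0.0489, 0.021 and 0.0327 CPM. The gene was thus near the floor in the 5 mGy/h and control libraries, with 1 to 3 counts in each library at 5 mGy/h and 231 to 816 at 0.5 mGy/h. The summed counts, scaled to depth, gave a ratio of 231 (exact 95% interval 112 to 576, counting error only), and the edgeR test gave an FDR of 0.244 with 6 libraries and 0.0382 with 5. With the 3 groups of batch 1 in one fit it was the 1 gene that passed with 6 libraries (FDR = 0.0384). Of the 5 beta thymosins tested, the 4 others did not pass in either fit.

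The smallest FDR of the 6-library fit, 0.204, was that of si:dkey-146c18.2 (ENSDARG00000104004), at 1.98, 1.61 and 1.53 CPM at 0.5 mGy/h and near the floor at 5 mGy/h, with 0.044, 0.0412 and 0.0878 CPM, while control replicate 3 was at 1.62 CPM and the other controls at 0.0978 CPM or less. SERF2 (ENSDARG00000075881, one of 2 IDs with that name) was at 15, 19.8 and 16 CPM at 0.5 mGy/h and at 6.14, 5.17 and 4.48 CPM at 5 mGy/h, with control replicate 2 at 6.16 CPM and the other controls at 20.4 and 18.4 CPM (log2 fold change -1.68 ± 0.20, FDR = 0.451). scinla (ENSDARG00000102415), named for an actin-severing protein, was at 16, 18.2 and 16.1 CPM against 8.27, 8.11 and 6.91 CPM, and its controls were at 16.2 to 18.8 CPM (-1.1 ± 0.15, FDR = 0.52). mtus1b (ENSDARG00000034105), named for a microtubule-associated protein, was at 30.1, 31 and 27.3 CPM against 16.6, 17.3 and 15.6 CPM (-0.82 ± 0.11, FDR = 0.52). For scinla and mtus1b the 3 libraries at 5 mGy/h stood below all 3 controls as well.

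The clock repressor PER2 (ENSDARG00000034503), a gene that light induces in zebrafish, was at 144, 168 and 169 CPM at 0.5 mGy/h, at 93.5, 98.2 and 111 CPM at 5 mGy/h and at 218, 210 and 226 CPM in the controls. The 3 groups did not overlap one another, and the log2 fold change between the dose rates was -0.66 ± 0.11 (FDR = 0.743 with 6 libraries, 0.0468 with 5). Of the 43 clock genes tested, 2 had an unadjusted p under 0.05 with 6 libraries (PER2 and PER1), both lower, against 1.65% of all genes. PER1 (ENSDARG00000012499) was at 389, 392 and 401 CPM against 313, 333 and 366 CPM (-0.22 ± 0.08, FDR = 1). Further lower genes were ranked by p if they had a symbol, no overlap, a fold of at least 1.5 and a mean of at least 1 CPM. The others among the first 10 were si:dkey-189n19.3, tppp2, CYP4V2, MAP1B and OSTF1, with log2 fold changes of -1.48, -1.88, -1.83, -1.65 and -1.47. MAP1B, which encodes a neuronal microtubule-associated protein, was at 63.2 CPM or more in each 0.5 mGy/h library against 34.4, 29.8 and 32.7 CPM, with controls at 34.5 to 74.7 CPM.

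Chaperone genes lay lower at 5 mGy/h than at 0.5 mGy/h by small amounts. Of 40 heat shock genes tested, 34 had a fold change below 1 (56.8% of all genes had one above 1), 12 had no overlap between groups in that direction (5.2% of all genes did) and 7 had an unadjusted p under 0.05 in it (1.65% of all genes did). The median log2 fold change was -0.16 with 6 libraries and -0.22 with 5. The list mean was 5.24, 5.44 and 5.41 for 0.5 mGy/h, 5.18, 5.09 and 5.07 for 5 mGy/h and 5.27, 5.01 and 5.23 in the controls. The controls thus lay on both sides of the 5 mGy/h libraries. HSPA8 (ENSDARG00000068992), a constitutive HSP70, was at 71.1, 97.3 and 103 CPM at 0.5 mGy/h and at 49.8, 41.8 and 60.6 CPM at 5 mGy/h, without overlap, but the controls spread from 3.13 to 64.1 CPM (-0.83 ± 0.20, FDR = 1). The co-chaperone dnaja1 (ENSDARG00000030972) was at 101, 105 and 112 CPM against 67.6, 89.8 and 78.4 CPM, and its controls were at 89.5, 86.6 and 99.1 CPM (-0.42 ± 0.12, FDR = 1). One member, HSPA9, passed in the 5-library fit and is described with its chromosomal neighbours.

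The second question was what the 5-library fit called. The 592 genes that rose had log2 fold changes with a median of 1.84, and the 45 that fell one of -1.93. None of the 637 overlapped between the groups compared, while over all genes 22.7% lay above and 18.9% below without overlap. The calls themselves favour genes with separated groups, so this is no added evidence. The gene with the lowest p was PEA15 (ENSDARG00000079771), a small adaptor protein of astrocytes and neurons, at 6.95, 7.88 and 7.32 CPM at 0.5 mGy/h and at 52.5 and 46.7 CPM in 5 mGy/h replicates 2 and 3 (log2 fold change 2.75 ± 0.10, FDR = 0.00646). In the library left out it was at 2.22 CPM, below every 0.5 mGy/h library. CACNA1B (ENSDARG00000021735, one of 2 IDs with that name), a presynaptic calcium channel, was at 43, 40.9 and 40.1 CPM against 89.7 and 102 CPM (1.21 ± 0.08, FDR = 0.0163), and replicate 1 was at 17.5 CPM.

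Replicate 1, which these calls did not use, lay on the opposite side for most of the genes that rose. It was below all 3 libraries at 0.5 mGy/h for 533 of the 592 genes (90%), within their range for 35 and above them for 24 (4.05%), while over all 21350 genes it was below for 37% and above for 36.5%. Relative to the mean at 0.5 mGy/h, the median log2 difference of the 592 genes was 1.28 and 1.65 in replicates 2 and 3 but -1.18 in replicate 1, and it was -0.04, -0.06 and -0.15 in the 3 control libraries. The control medians were thus near 0, and the 5 mGy/h libraries departed from them in both directions. For the 45 genes that fell, replicate 1 was below all 0.5 mGy/h libraries for 39 (86.7%), above for 2 and within for 4, and the median log2 difference was -0.82 there and -1.38 in each of the 2 other 5 mGy/h libraries, with controls at -0.68, -0.70 and -0.19. The share of reads that matched no annotated gene on the strand counted was 24.1% in replicate 1 and 26.2% and 25.2% in replicates 2 and 3. It was 25.4 to 25.8% at 0.5 mGy/h and 24.25, 24.83 and 25.26% in the controls. The part of this share in these differences was not tested.

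**Figure D3:**
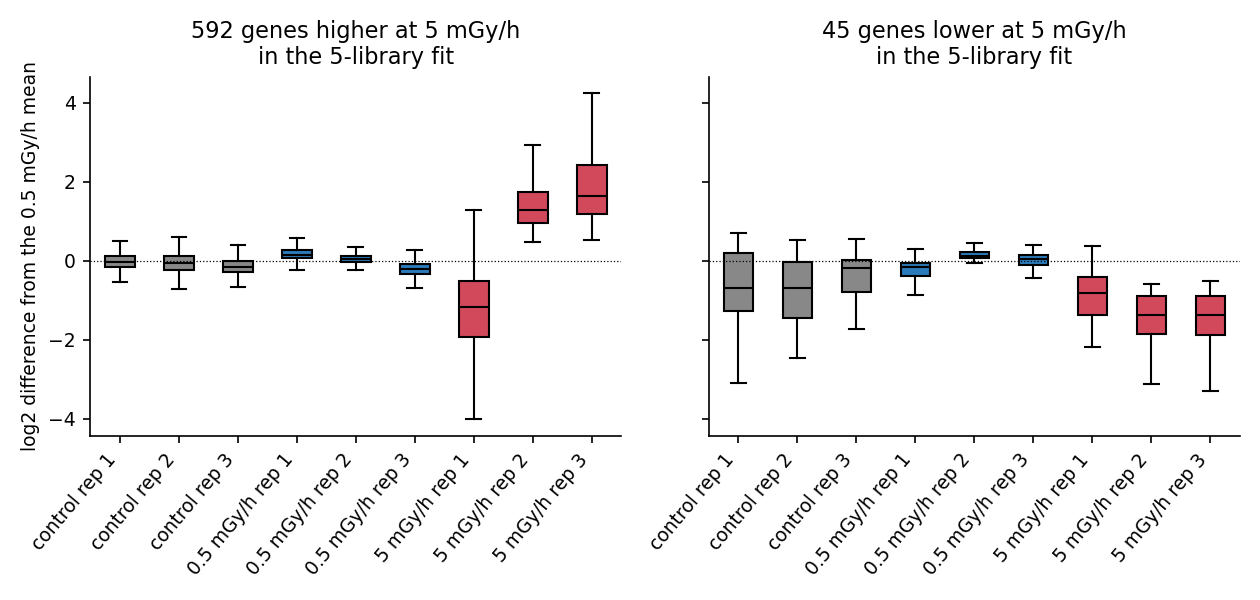
Boxes show the log2 difference of each library from the 0.5 mGy/h mean over the 592 genes higher (left) and the 45 genes lower (right) at 5 mGy/h in the 5-library fit (line, median; box, quartiles; whiskers to 1.5 times the box length, genes beyond not drawn). Replicate 1 at 5 mGy/h, which the calls did not use, has a median of -1.18 on the left and -0.82 on the right.

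The count of 637 rested on few libraries. It was 496 without 0.5 mGy/h replicate 1, 0 without 0.5 mGy/h replicate 2, 2 without 0.5 mGy/h replicate 3, 222 without 5 mGy/h replicate 2 and 0 without 5 mGy/h replicate 3, where a lone library is assumed to vary like those of the other group. In a fit of all groups of both batches it was 81, and a test against a fold change of 1.5 called 13 genes, all higher.

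Lists of voltage-gated channels, synaptic scaffolds and chromatin regulators, written after these values had been seen and so no independent evidence, are described by their counts. Of 94 genes tested that are named as subunits of voltage-gated channels, 24 rose and 1 fell, against 2.77% and 0.211% of all genes. The calcium channel CACNA1A (ENSDARG00000006923) was at 26.6, 25.8 and 26.9 CPM at 0.5 mGy/h, at 50.8 and 64.9 CPM in replicates 2 and 3 and at 16 CPM in replicate 1 (log2 fold change 1.13 ± 0.11, FDR = 0.0382). CACNG5 (ENSDARG00000039240), in the list through its name as a calcium channel gamma subunit, was at 3.28, 3.43 and 2.19 CPM, at 12.5 and 15.4 CPM, and at 1.28 CPM in the same order (2.23 ± 0.23, FDR = 0.0382). The 1 channel that fell was the potassium channel KCNQ5 (ENSDARG00000069953), at 4.92, 6.07 and 3.29 CPM against 0.755 and 0.812 CPM, where replicate 1 was at 3.37 CPM (-2.60 ± 0.32, FDR = 0.0382). Its controls were spread, at 7.18, 1.35 and 4.37 CPM.

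Of 81 genes of synaptic scaffolds and adhesion, 13 rose and none fell (2.77% and 0.211% of all genes). DLG4 (ENSDARG00000041926), which encodes the scaffold PSD-95, was at 9.5, 10 and 6.92 CPM at 0.5 mGy/h, at 60.5 and 110 CPM in replicates 2 and 3 and at 1.83 CPM in replicate 1 (3.27 ± 0.29, FDR = 0.0382). ERC2 (ENSDARG00000105178), a protein of the active zone, was at 2.48, 2.81 and 2.4 CPM, at 15 and 27.5 CPM, and at 1.8 CPM (3.05 ± 0.27, FDR = 0.0382). Of 106 chromatin regulators, 12 rose and 1, hdac3, fell, against the same shares of all genes. The DNA methyltransferase DNMT3A (ENSDARG00000005394) was at 1.25, 1.08 and 1.3 CPM, at 12 and 21.6 CPM, and at 0.572 CPM (3.77 ± 0.30, FDR = 0.0297), and NIPBL (ENSDARG00000061052), which loads cohesin, was at 51.8, 47.4 and 42.7 CPM, at 98.8 and 104 CPM, and at 31.5 CPM (1.1 ± 0.09, FDR = 0.035). Replicate 1, which these calls did not use, was below every 0.5 mGy/h library for CACNA1A, CACNG5, DLG4, ERC2, DNMT3A and NIPBL.

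Of 27 genes of GABA signalling tested, 7 rose and none fell with 5 libraries (2.77% and 0.211% of all genes), 17 had no overlap in the higher direction (22.7% of all genes did), and the median log2 fold change was 0.52, against 0.12 with 6 libraries. gabbr1b (ENSDARG00000016667), a subunit of the metabotropic receptor, was at 29.3, 24.6 and 17.1 CPM at 0.5 mGy/h, at 84.9 and 168 CPM in 5 mGy/h replicates 2 and 3 and at 8.65 CPM in replicate 1 (2.41 ± 0.34, FDR = 0.0382). GAD1 (ENSDARG00000093411), which makes GABA, was at 8.15, 7.19 and 5.54 CPM, at 14.5 and 16.7 CPM, and at 0.198 CPM (1.16 ± 0.18, FDR = 0.0429). Of 41 glutamate genes tested, 2 rose and 1 fell (2.77% and 0.211% of all genes). The gene that fell, GRIA3, is described under the other observations. GRIN2B (ENSDARG00000079348), an NMDA receptor subunit, was at 5.09, 3.72 and 2.38 CPM, at 13.1 and 22.3 CPM, and at 0.22 CPM in replicate 1 (2.25 ± 0.36, FDR = 0.0439).

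The mean log2(CPM + 0.5) of the channel list was 3.1, 3.05 and 2.93 at 0.5 mGy/h, 2.28, 3.54 and 3.76 in 5 mGy/h replicates 1, 2 and 3, and 2.97 to 3.04 in the controls. That of the GABA list was 4.92, 4.80 and 4.70 in the 0.5 mGy/h libraries, 3.82, 5.39 and 5.66 in the 5 mGy/h libraries and 4.67 to 4.70 in the controls. For both lists the group at 5 mGy/h held the lowest library and the 2 highest of the batch. Ribosomal protein genes stood in another order, at 7.08, 7.14 and 7.16 for 0.5 mGy/h, then 7.45, 6.83 and 7.27 for 5 mGy/h, so that replicate 1 was the highest of the 6.

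**Figure D4:**
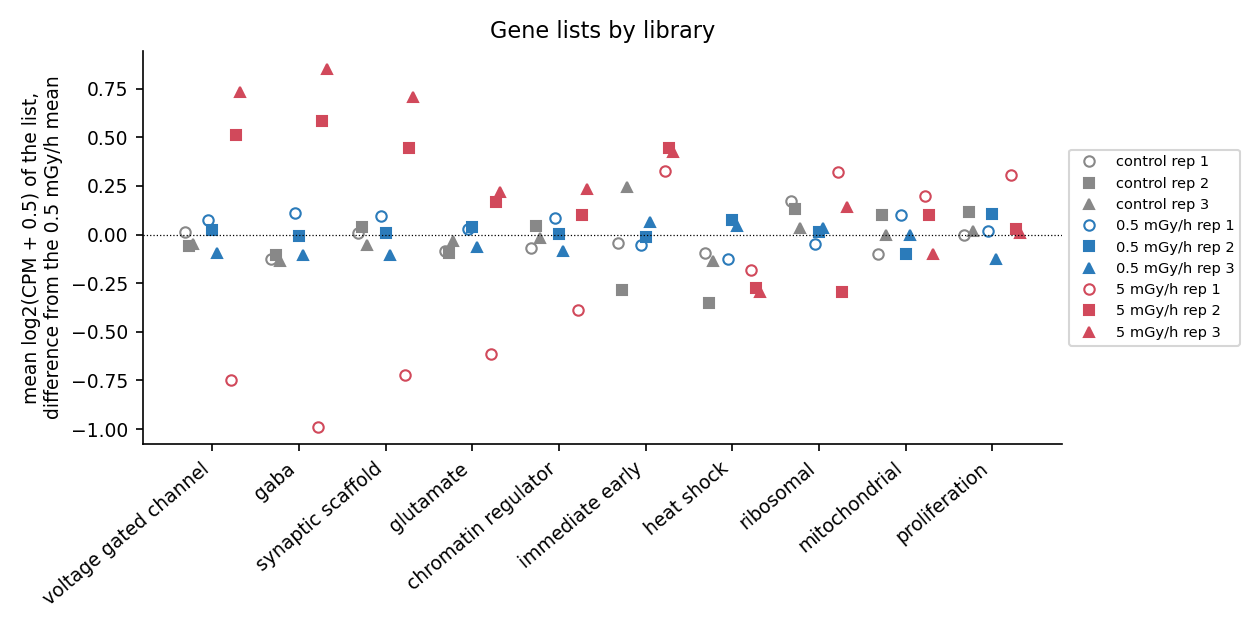
Mean log2(CPM + 0.5) of 10 gene lists in each library, as the difference from the mean of the 0.5 mGy/h libraries, for controls (grey), 0.5 mGy/h (blue) and 5 mGy/h (red), with replicate 1 as open circles. Replicate 1 at 5 mGy/h is the lowest library for the channel, GABA, scaffold, glutamate and chromatin lists, whereas all 3 libraries at 5 mGy/h lie on one side for the immediate-early and heat shock lists.

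Called genes that lie near each other in gene order were found in runs, which were looked for after the values had been seen. Genes that were not called, or that could not be placed, can lie between the members of a run. Gene order came from the RefSeq table of assembly GRCz12tu, in which 369 of the 637 called genes (57.9%) could be placed by name, while the reads had been counted on GRCz11. With a run defined as at least 3 called genes of one direction within 10 placed genes, there were 1 run of lower genes and 13 of higher genes, 55 called genes in all, and the 2 with the most genes are described. Whether such runs are more frequent than in other lists was not tested.

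The run of lower genes held ZNF711, zgc:66447, tmsb1, prps1b, kctd12b, HSPA9, rhogd and hdac3, 8 placed genes in a row of which all but kctd12b fell with 5 libraries (kctd12b, log2 fold change -2.33, FDR = 0.125). HSPA9 (ENSDARG00000003035), the mitochondrial HSP70, was at 55.9, 149 and 92.1 CPM at 0.5 mGy/h, at 32.5, 10.2 and 8.82 CPM at 5 mGy/h and at 12.4, 18.5 and 28.5 CPM in the controls (log2 fold change with 5 libraries -3.38 ± 0.46, FDR = 0.0382). The histone deacetylase hdac3 (ENSDARG00000037514) was at 10.3, 31.9 and 21 CPM against 6.95, 1.45 and 1.25 CPM (-3.96 ± 0.55, FDR = 0.0382), and prps1b (ENSDARG00000037506), an enzyme of nucleotide synthesis, was at 2.62, 8.79 and 5.58 CPM against 2.18, 0.631 and 0.483 CPM (-3.33 ± 0.59, FDR = 0.0495). For all 8 genes the libraries at 0.5 mGy/h stood in the same order, with replicate 1 the lowest and replicate 2 the highest. At 5 mGy/h, replicate 1 was the highest of its group for all but tmsb1 and rhogd, whose few counts there give no order, and for ZNF711, zgc:66447, prps1b, HSPA9 and hdac3 it lay above all controls.

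The run of higher genes held BIRC2, POLQ, ddias, PCF11, CCDC90B and ALG8, 6 placed genes in a row that all rose with 5 libraries. BIRC2 (ENSDARG00000044619), an inhibitor of apoptosis, was at 0.0695, 0.201 and 0.174 CPM at 0.5 mGy/h, at 16.5 and 18.5 CPM in 5 mGy/h replicates 2 and 3 and at 0.198 CPM in replicate 1 (6.87 ± 0.34, FDR = 0.0122). PCF11 (ENSDARG00000044625), a factor of transcript cleavage, was at 0.486, 0.474 and 0.271 CPM, at 11.3 and 12 CPM, and at 0.154 CPM (4.82 ± 0.27, FDR = 0.015). ddias, CCDC90B and ALG8 had no count at 0.5 mGy/h or in replicate 1, and replicates 2 and 3 together were at least 16.8-fold, 14.1-fold and 15.5-fold higher than the floor of 3 counts per library. One unexposed library carried the same level, as control replicate 2 was at 21.9 CPM for BIRC2, 12.8 CPM for PCF11, 1.05 CPM for ddias, 0.484 CPM for CCDC90B and 1.14 CPM for ALG8, and the other controls were at 0.606 CPM or less for each. For POLQ, a DNA polymerase, control replicate 2 was at 0.0631 CPM against 0.343 and 0.395 CPM in replicates 2 and 3 at 5 mGy/h.

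**Figure D5:**
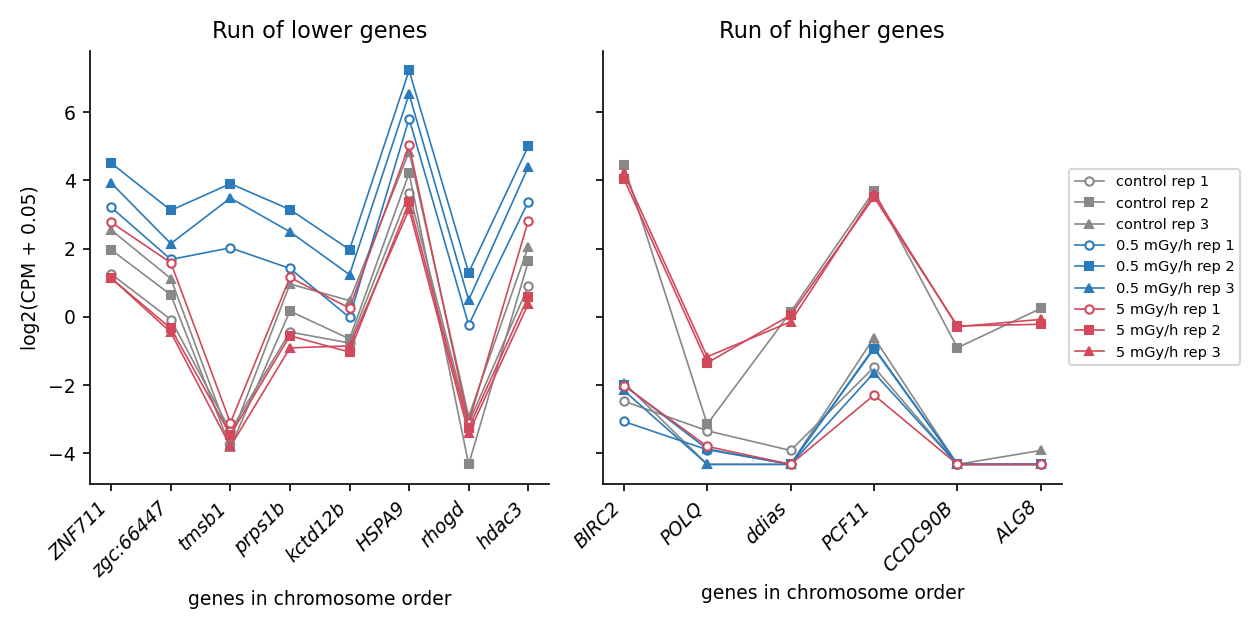
log2(CPM + 0.05) of the genes of both runs in chromosome order, 1 line per library, for controls (grey), 0.5 mGy/h (blue) and 5 mGy/h (red), with replicate 1 as open circles. On the left the 3 libraries at 0.5 mGy/h lie above the rest for every gene except kctd12b; on the right 5 mGy/h replicates 2 and 3 and control replicate 2 share the upper level for every gene except POLQ.

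Genes of processes that radiation is known to engage differed little between the dose rates. Of 50 genes of DNA repair and damage checkpoints tested, none passed in either edgeR fit or with DESeq2, and 1 had an unadjusted p under 0.05 with 6 libraries, brca2 (ENSDARG00000079015), a recombination gene, at 9.15, 9.61 and 10.5 CPM against 11.2, 12.4 and 16.8 CPM (0.47 ± 0.19, FDR = 1). None of 34 proliferation genes, 29 antioxidant genes and 17 genes of newborn neurons passed in either edgeR fit or with DESeq2, and none had an unadjusted p under 0.05 with 6 libraries. Fold changes above 1 were found for 37 repair, 31 proliferation, 20 antioxidant and 15 newborn-neuron genes with 6 libraries (56.8% of all genes). The median log2 fold changes were 0.08, 0.12, 0.06 and 0.08, against 0.03 over all genes. Without 5 mGy/h replicate 1 the fold change was above 1 for 25, 13, 11 and 11 genes in the same order (50.6% of all genes). A p that misses the threshold does not show that the levels were equal.

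Of 11 preoptic and hypothalamic genes tested, 4 had an unadjusted p under 0.05, all with the higher level and no overlap at 5 mGy/h (2.09% and 4.14% of all genes), and none passed the thresholds in either edgeR fit (DESeq2, 1 with 6 libraries and 2 with 5, all higher). oxt (ENSDARG00000042845), the oxytocin precursor, was at 86.7, 94.4 and 63.7 CPM at 0.5 mGy/h, at 139, 155 and 325 CPM at 5 mGy/h and at 323, 17.4 and 64.8 CPM in the controls (1.34 ± 0.36, FDR = 1). OTP (ENSDARG00000058379), a factor of the neurons that make such peptides, was at 3.6, 5.22 and 4.78 CPM against 8.78, 9.51 and 8.21 CPM, with controls at 9.36, 1.33 and 5.58 CPM (0.97 ± 0.20, FDR = 1). The controls were spread over most of the range of both dose rates for both genes.

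Genes of phototransduction and of the pineal organ, which is not part of the telencephalon, separated libraries within groups. Of 45 phototransduction genes, 42 had a fold change above 1 (56.8% of all genes did), and 3 were higher at an unadjusted p under 0.05 (2.09% did). At 5 mGy/h, 8 of the 45 lay above without overlap (4.14% of all genes did) and none below (5.2% did). The median log2 fold change of the 45 was 0.89, and none passed in either edgeR fit (DESeq2, 0 with 6 libraries and 1 with 5). The list mean was 0.36, 3.13 and 2.44 for 0.5 mGy/h, 2.66, 3.28 and 3.44 for 5 mGy/h and 3.56, 0.59 and 0.38 in the controls, so that 0.5 mGy/h replicate 1 and controls 2 and 3 were low and the others high. Without 0.5 mGy/h replicate 1 the median was 0.34, and without 0.5 mGy/h replicate 2 it was 1.86. aanat2 (ENSDARG00000079802), the melatonin enzyme of the pineal, was at 4.55, 30 and 12 CPM against 31.7, 48.5 and 71.9 CPM, with controls at 33.2, 5.81 and 4.96 CPM (1.71 ± 0.69, FDR = 1). Of 15 muscle genes tested, none passed in either edgeR fit or with DESeq2. With 6 libraries, 2 were higher and 1 lower at an unadjusted p under 0.05 (2.09% and 1.65% of all genes). At 5 mGy/h, 5 lay above and 2 below without overlap (4.14% and 5.2% of all genes did). The muscle list mean was 0.33, 0.58 and 0.53 for 0.5 mGy/h, 0.88, 0.67 and 0.66 for 5 mGy/h and 0.35 to 0.59 in the controls, so that the dose rates did not overlap, and its part in the other differences was not tested.

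Of 26 genes of the interferon response tested with 6 libraries, 16 had a fold change above 1 (56.8% of all genes did), with a median log2 fold change of 0.21. Groups did not overlap for 3 genes in the lower and 2 in the higher direction (5.2% and 4.14% of all genes). The list as a whole was thus not lower at 5 mGy/h, but 2 of its chemokine genes were near the floor there. cxcl11.5 (ENSDARG00000092423) was at 0.313, 0.274 and 0.601 CPM at 0.5 mGy/h and at 0 to 0.0219 CPM at 5 mGy/h. The ratio by summed counts was 32 (exact 95% interval 8.5 to 270, counting error only), and the gene fell with 5 libraries (FDR = 0.0462). cxcl11.7 (ENSDARG00000093779) was at 0.573, 0.365 and 0.601 CPM against 0 to 0.0439 CPM, a ratio of 42 (11.3 to 352, counting error only), with an FDR of 0.0523. The controls were at 0 to 0.0421 CPM for both genes, and the 3 libraries at 0.5 mGy/h stood apart from the other 6 of the batch.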

How the data were processed

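RNA of 21 telencephalon libraries had been sequenced, and the 6 libraries at 0.5 and 5 mGy/h were compared. The authors deposited read counts per Ensembl gene (32057 genes), made with RNA-STAR on GRCz11 and not normalized; multimapped reads were counted apart. Counts of the reverse strand, which fits the stranded kit, were used, since the column tested is not given in the sources used here. Of the IDs, 28988 were named. Precision is limited by 3 libraries per group.

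Counts were tested with edgeR 4.0.16 (R 4.3.3; TMM, filterByExpr, quasi-likelihood test, Benjamini-Hochberg FDR) with thresholds of 0.05 and a fold change of 1.5, in 6 libraries and without 5 mGy/h replicate 1. DESeq2 1.42.0 was an alternative; the submitters' processing notes name DESeq2 1.22.2. The tests were run on simulated counts in which no library stood apart, so that check does not cover a library like 5 mGy/h replicate 1. CPM were computed over the 9 libraries of batch 1, and list means as log2(CPM + 0.5). Gene lists were described by counts and medians.

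Genes named were, by lowest p, 10 in each direction per fit with a symbol, no overlap and a mean of at least 1 CPM (fold of at least 1.5), up to 4 genes per list, tmsb1 and per2. Neighbours in runs outside that rule were chosen after their values were seen. Where 2 IDs share a name (NPAS4, CRABP1, SERF2, CYP4V2, PER1, HSPA8, CACNA1B, CACNG5, DLG4, DNMT3A, NIPBL, GAD1, GRIN2B, GRIA3, OTP), the values are those of the ID given. The members and lists were chosen with earlier results of these data known. Alternatives were other size factors, filters, dispersion, unstranded counts, larger fits, a replicate block and leaving out each library. Some items are not reported here.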

Additional observations from a re-analysis of the deposited data

How the results depend on the processing

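The count of genes past the thresholds with 6 libraries was 0, and it was 55 with DESeq2, 1 with the 3 groups of batch 1 in one fit and 496 with the first replicates of both groups left out. Leaving out 1 library gave 0 to 637, with 637 for 5 mGy/h replicate 1 and 0 for each other library. With 5 libraries the count was 637, and it was 1579 with DESeq2 (636 of the 637 shared), 1185 with the 3 groups of batch 1 in one fit (586 shared), 81 with all groups of both batches in one fit and 13 in the test against a fold of 1.5. Leaving out 1 library of the 5 gave 0 to 496. The replicate block gave 0 calls with 6 libraries and 0 with 5, where it leaves few degrees of freedom. No label says what the replicate numbers mark, and the deviations of same-numbered libraries correlated at -0.08, 0.08 and -0.24. With 3 libraries per group, 1 of which stands apart at 5 mGy/h, these values cannot decide whether the numbers pair the libraries. The other alternatives with 5 libraries gave 465 to 935 calls, among which RLE size factors gave 465. Over all named genes and settings, 408 calls of the 5-library fit were lost and 40 gained, 148 were gained over the 6-library fit, and no called gene changed direction. The cause of these differences was not tested. A gene at 1 to 3 counts per library, and any difference smaller than the spread of 3 pools, cannot be resolved at this depth.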

Other observations

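Single genes not described above also passed the thresholds without 5 mGy/h replicate 1. NR3C2 (ENSDARG00000102082), the mineralocorticoid receptor, was the 1 gene of 19 tested in the stress steroid list that rose, at 1.56, 1.9 and 1.05 CPM at 0.5 mGy/h, at 6.99 and 10.4 CPM in 5 mGy/h replicates 2 and 3 and at 0.88 CPM in replicate 1 (log2 fold change 2.53 ± 0.31, FDR = 0.0382). SLC18A2 (ENSDARG00000015110), the vesicular monoamine transporter, rose from 0.764, 0.675 and 0.523 CPM to 2.33 and 3.14 CPM (2.06 ± 0.27, FDR = 0.0382), with 0.374 CPM in replicate 1. MYRF (ENSDARG00000078676), a myelin gene regulator of oligodendrocytes, was the 1 gene of 14 in its list that rose, at 2.52, 2.21 and 1.24 CPM against 7.04 and 6.82 CPM (1.80 ± 0.30, FDR = 0.0468), with 0.418 CPM in replicate 1. Replicate 1 was below every 0.5 mGy/h library for all 3 genes. SLC18A2 belongs to the serotonin list, where 1 of 22 genes rose, and to the dopamine list, where 2 of 26 rose. Over all genes 2.77% rose in this fit, so calls this few say little about the lists.

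GRIA3 (ENSDARG00000037498), an AMPA receptor subunit, was the 1 gene of the glutamate list that fell with 5 libraries (-2.42 ± 0.40, FDR = 0.0462). It was at 70, 165 and 88.2 CPM at 0.5 mGy/h and at 21.2 and 19.1 CPM in 5 mGy/h replicates 2 and 3. Replicate 1 was at 74.9 CPM and within the range at 0.5 mGy/h. The controls were at 21.3, 38.8 and 54.6 CPM, below every 0.5 mGy/h library and below 5 mGy/h replicate 1. Among the lower genes, CNOT6L (ENSDARG00000054597), a deadenylase, was at 4.98, 5 and 3.91 CPM at 0.5 mGy/h, at 2.42, 1.47 and 1.49 CPM at 5 mGy/h and at 2.1 to 2.44 CPM in the controls (-1.65 ± 0.20 with 5 libraries, FDR = 0.0382). The 3 libraries at 0.5 mGy/h were thus the ones that stood above the controls for CNOT6L, as they were for tmsb1.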
